A study of Drosophila melanogaster with 4 samples.

Results

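Broad domains of H3K23ac, the acetylation of lysine 23 on histone H3, were described in embryos of the fruit fly *Drosophila melanogaster*. A broad domain is an enriched region of at least 5000 bp in the combined region list of the series. The domains were selected on this measured width alone, which left 1765 of 18064 combined regions. They made up 9.77% of the regions and 14.4 Mb, or 30.3%, of the combined bases. The other 16299 regions, all narrower than 5000 bp, are given beside them. The mark was mapped by chromatin immunoprecipitation and sequencing (ChIP-seq) in whole embryos of the wild-type strain Oregon-R, 14 to 16 hr old, in which many cell types are mixed. The series had 2 ChIP samples, called replicate 1 and replicate 2 here, and 2 input samples of chromatin without immunoprecipitation, whose own values were not used here. Replicate 1 had 10281 regions, replicate 2 had 7422, and their read depth is unknown. The labels do not say whether the replicates were separate embryo collections, so that their spread may be technical.

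Acetylation of a lysine in a histone tail removes its positive charge, loosens its hold on DNA and offers a binding site to proteins with a bromodomain. Histone acetylation is typical of transcribed genes and of active promoters and enhancers, where it usually forms short peaks. Where active elements lie close together, acetylated nucleosomes can form one long stretch. In an enriched-region list such a stretch may appear as one wide region or as several narrower ones, according to how the list was made.

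All values below compare regions within these lists. Width chose the domains, and the combined list shares its samples with the replicate lists, so the differences from narrower regions are descriptions without a test. Intervals on shares are 95% Wilson intervals and cover counting error only. Positions are on FlyBase release 5, the build of the files. Genes at these positions are not named, because the gene table used here is on Release 6.

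Broad domains were mostly moderate extensions of the width limit, with a long tail. The median width was 6911 bp in broad domains, with quartiles of 5721 and 9027 bp, and 1747 bp in narrower regions, with quartiles of 1289 and 2513 bp. Of the domains, 851 reached 7 kb, 341 reached 10 kb, 94 reached 15 kb, 39 reached 20 kb and 3 reached 30 kb. Widths ran on smoothly through the limit, with 325 regions in the 500 bp above it and 464 in the 500 bp below it. A limit of 4000 bp gave 2729 domains and one of 8000 bp gave 628, and merging regions less than 1000 bp apart gave 2935 of at least 5000 bp. The narrowest domains measured 5001 bp, namely 2R 14747042 to 14752042, 3R 16776558 to 16781558, 3R 24876774 to 24881774 and X 17408760 to 17413760, followed by 2R 15972254 to 15977256 with 5003 bp. Their combined scores were between 0.49 and 0.57 (log2). The widest regions left out measured 4997 bp on 2L at 383100 and 21244986, on 3L at 22761442 and on 3R at 21169290, and 4995 bp on 2R at 4340696. Their scores were between 0.47 and 0.66.

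The 3 widest domains had many separate regions in each replicate. The widest, 3L 22341830 to 22401176, spanned 59347 bp and held 10 pieces of replicate 1 and 6 pieces of replicate 2, a piece being any replicate region that shares at least 1 base with the domain. Replicate 1 covered 82.2% of it, replicate 2 covered 90.7%, and 76.1% was covered in both. Its longest single piece was 10064 bp in replicate 1 and 19741 bp in replicate 2, which was also the widest region in the whole list of replicate 2. The domain thus exceeded every region that either replicate gave by itself.

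**Figure D1:**
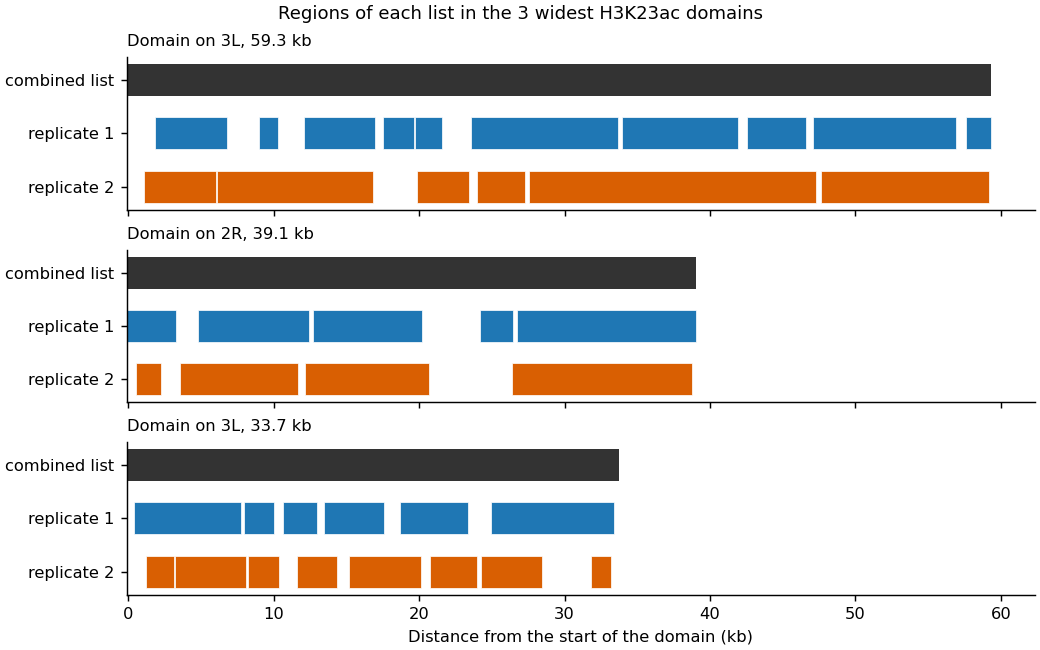
The 3 widest domains, each drawn as a black bar for the combined list with the regions of replicate 1 (blue) and replicate 2 (orange) below it. The x axis is the distance from the start of the domain in kb, and the domain of 59347 bp shows 10 pieces of replicate 1 and 6 of replicate 2, with breaks at different places.

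The second widest, 2R 3034794 to 3073856, spanned 39063 bp with 5 pieces of replicate 1 and 4 of replicate 2. These covered 84.5% and 78.8% of it. It contained a break shared by the replicates: replicate 1 had no region between 3054955 and 3058995, and replicate 2 had none between 3055460 and 3061156. Only 37 bp separated this domain from the next broad domain on its left. The third, 3L 1429818 to 1463564, spanned 33747 bp with 6 pieces of replicate 1 and 8 of replicate 2, and 65.4% of it was covered in both.

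The other 7 of the 10 widest domains lay on 2L, 3L and 3R and were between 25639 and 29749 bp wide. The domain 2L 4485012 to 4514760, of 29749 bp, was covered to 95.1% by 3 pieces of replicate 1 and to 59.7% by 7 pieces of replicate 2. The reverse imbalance in number appeared in 2L 640166 to 669358, of 29193 bp, with 9 pieces of replicate 1 and 5 of replicate 2. In 3L 712220 to 738894, of 26675 bp, the replicate regions together formed 1 unbroken stretch covering 99.5% of the domain. The least supported of the 10 was 3R 26537816 to 26563454, of 25639 bp, with 29.7% covered in both replicates and a combined score of 0.57. In all 10, the part covered in both replicates was between 29.7% and 76.1%. The domains with the most pieces were also among the widest. After the domains on 3L and 2L already named came 3L 1688526 to 1714838, with 5 pieces of replicate 1 and 9 of replicate 2, and 2L 1944292 to 1969740, with 7 and 6.

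Nearly all broad domains overlapped replicate regions, but few were covered throughout. A region of both replicates was found in 1598 of 1765 domains (90.5%, interval 89.1 to 91.8%) and in 2817 of 16299 narrower regions (17.3%, interval 16.7 to 17.9%). Over all combined regions this share was 24.4%. A wide region has more bases on which to meet a replicate region, so this count depends on width by its construction. The stricter criterion of at least 50% of the bases covered in each replicate was met by 806 domains (45.7%, interval 43.4 to 48.0%) and 11.1% of narrower regions, against 14.5% of all combined regions. Cover of at least 90% in each replicate was reached by 20 domains (1.13%) and 0.252% of narrower regions. A region of replicate 1 alone was found in 119 domains and of replicate 2 alone in 39. No replicate region was found in 9 domains (0.510%) and in 7923 narrower regions (48.6%), while 43.9% of all combined regions had none.

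Counted in bases, the domains were covered to 65.6% by replicate 1 and to 55.1% by replicate 2, and narrower regions to 39.8% and 24.2%. In the domains 40.1% of the bases were covered in both replicates, 25.5% in replicate 1 only, 15.0% in replicate 2 only and 19.4% in neither. In narrower regions 13.1% were covered in both and 49.1% in neither. With regions less than 1000 bp apart merged, 26.3% of domain bases were covered in both. For the single domain the median share covered in both was 36.2%, with quartiles of 20.7% and 55.6%. The 5 domains with the largest share in both were headed by 2L 1405316 to 1420596, of 15281 bp and 95.6%, with 2 pieces of replicate 1 and 1 of replicate 2. The others were 3L 1075946 to 1083190, 2R 16937594 to 16944560, 2R 5086024 to 5092100 and 2R 8885688 to 8892650. They were 6077 to 7245 bp wide, and each consisted of 1 piece in either replicate.

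The 9 domains without a replicate region were between 5185 and 7861 bp wide, with a median score of 0.43. The widest of them lay on X at 9627136 to 9634996, had a score of 0.46 and was 389 kb from the nearest other broad domain. Domains with a region of 1 replicate numbered 158, with 5658 bp as the median width and 0.49 as the median score. Those with regions of both replicates had medians of 7091 bp and 0.58. All domains of at least 15 kb belonged to the last class.

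Most domains overlapped several regions of at least 1 replicate. Domains averaged 1.81 pieces of replicate 1 and 1.68 of replicate 2, or 1.75 ± 0.0929 (SD, n = 2), and narrower regions 0.438 and 0.281. These numbers depend on width, since the narrowest replicate region measured 1301 bp and a narrower region has little room for several. At least 2 pieces in each replicate were found in 616 domains (34.9%). A further 610 domains (34.6%) had at least 2 pieces in 1 replicate and a single piece in the other. The single most frequent combination, 1 piece in each replicate, held 372 domains (21.1%). Replicate 1 had more pieces in 597 domains, replicate 2 in 434, and the numbers were the same in 734.

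Most domains held no single piece of 5 kb or more, counting only the bases of a piece inside the domain. Both replicates had one in 109 domains (6.18%), replicate 1 alone in 248 and replicate 2 alone in 113. In the remaining 1295 domains (73.4%) neither replicate had one. This count depends on width by construction, since a domain near the limit can hold such a piece only if the piece fills nearly all of it. Where a replicate had any piece, its longest covered a median of 42.8% of the domain in replicate 1 and 36.2% in replicate 2. Of all replicate regions, 31.0% of those of replicate 1 and 39.8% of those of replicate 2 shared a base with a domain. Nearly all replicate bases lay in combined regions, so a replicate region of at least 5 kb meets a domain almost by construction, as 389 of 390 did in replicate 1 and 244 of 248 in replicate 2. The domains held 40.9% of the bases of replicate 1 and 48.9% of those of replicate 2.

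The breaks between consecutive pieces of a replicate were short, and the other replicate covered part of them. Inside domains, replicate 1 had 1471 such gaps with a median of 624 bp and replicate 2 had 1325 with a median of 695 bp. Of the gap bases of replicate 1, 52.3% were covered by replicate 2, and of the gap bases of replicate 2, 64.4% were covered by replicate 1. All gaps are interior, and just past the midpoint cover was higher: replicate 2 covered 57.0% there in domains of 5 to 10 kb and 66.7% in those of 10 kb or more, and replicate 1 covered 69.6% and 74.3%. Gaps wholly covered by the other replicate made up 33.9% of those of replicate 1 and 44.2% of those of replicate 2. When the regions of both replicates were joined, the cover was 1 unbroken stretch in 783 domains (44.4%) and 2 or more stretches in 973 (55.1%). Between these stretches lay 1307 intervals seen in neither replicate, with a median of 410 bp and a maximum of 5060 bp, which made up 6.11% of domain bases.

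More of the bases without replicate cover lay at the ends of the domains than inside them. Ends beyond the outermost covered base made up 12.9% of domain bases, and 0.368% lay in the 9 domains without any piece. The uncovered end measured 178 bp at the median and 6135 bp at most, against 82 bp at the median in narrower regions. These lengths were not scaled to the width of the region. Only 49 domains (2.79% of those with a piece) were reached at both ends by replicate regions, against 827 narrower regions (9.87% of those with a piece).

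**Figure D2:**
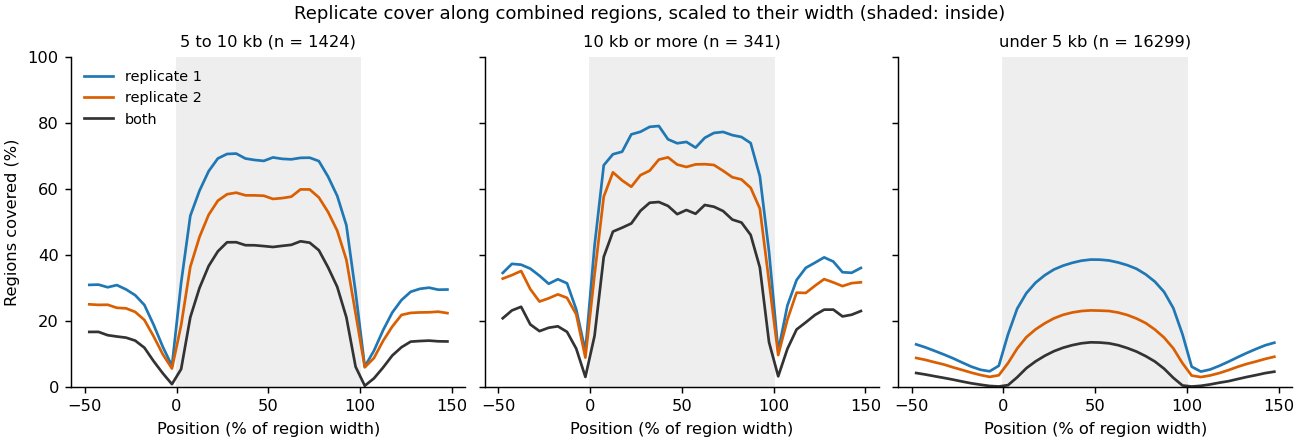
Share of regions covered in replicate 1 (blue), in replicate 2 (orange) and in both (black) along combined regions scaled to their width, with the region shaded and a flank of 50% of the width on each side, for 1424 domains of 5 to 10 kb, 341 domains of 10 kb or more, and 16299 narrower regions. At 52.5% of the width, cover in both is 42.4% in domains of 5 to 10 kb and 53.6% in those of 10 kb or more.

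The profile of replicate cover was flat over the middle of the domains and lower in the outer parts. In domains of 10 kb or more, replicate 1 covered 74.3% just past the midpoint, 73.9% in the bin at 87.5% of the width and 40.9% in the last bin, which is centred on 97.5%. The values for replicate 2 in these bins were 66.7%, 60.3% and 31.9%. Narrower regions had a single rounded maximum at the midpoint, with 38.6% and 23.2%. The narrowest replicate region measured 1301 bp, so a piece inside a region of 1747 bp, their median width, must span its midpoint. The flat and rounded shapes thus differ in part by construction. Just outside the domains of 10 kb or more, in the bin centred on 102.5%, cover was 10.8% in replicate 1 and 9.61% in replicate 2. A dip directly beside a region follows from the lists, since 98.1% of the bases of replicate 1 and 98.4% of those of replicate 2 lay in combined regions, and all but 12 neighbouring pairs of combined regions are separated by a gap. At the far end of the flank, at 147.5%, cover was 36.0% and 31.7%. Flanks scale with width and reach less far beside narrower regions, so the flanks of the classes lie at unlike distances and were not compared.

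Pieces at the ends of domains resembled those inside. In domains with at least 3 pieces of a replicate, outermost pieces had a median score of 0.68 in replicate 1 and 0.67 in replicate 2, and inner pieces had 0.68 and 0.67. Median widths were 2081 bp for outermost and 2235 bp for inner pieces in replicate 1, and 1948 and 2042 bp in replicate 2. Widths count the whole piece, including bases outside the domain.

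Broad domains had higher scores than narrower regions, by a small margin on the authors' scale. The score is 1 value per region on a log2 scale, which the files do not define further. It had a median of 0.57 in domains (quartiles 0.51 and 0.64) and 0.45 in narrower regions (quartiles 0.40 and 0.51), a difference of 0.12. The difference was 0.055 with regions less than 1000 bp apart merged, and 0.065 among regions above the median score. The latter setting selects on the score itself and removes more of the narrower regions than of the domains. Its smaller difference follows in part by construction. Scores above the median of the combined list were found in 1615 domains (91.5%) and in 45.5% of narrower regions. In the replicates' own lists, regions of at least 5 kb exceeded narrower ones by 0.16 in replicate 1 and 0.11 in replicate 2, 0.14 ± 0.036 (SD, n = 2). Domains, 9.77% of the combined regions, held 20 of the 100 and 393 of the 1000 highest combined scores.

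**Figure D3:**
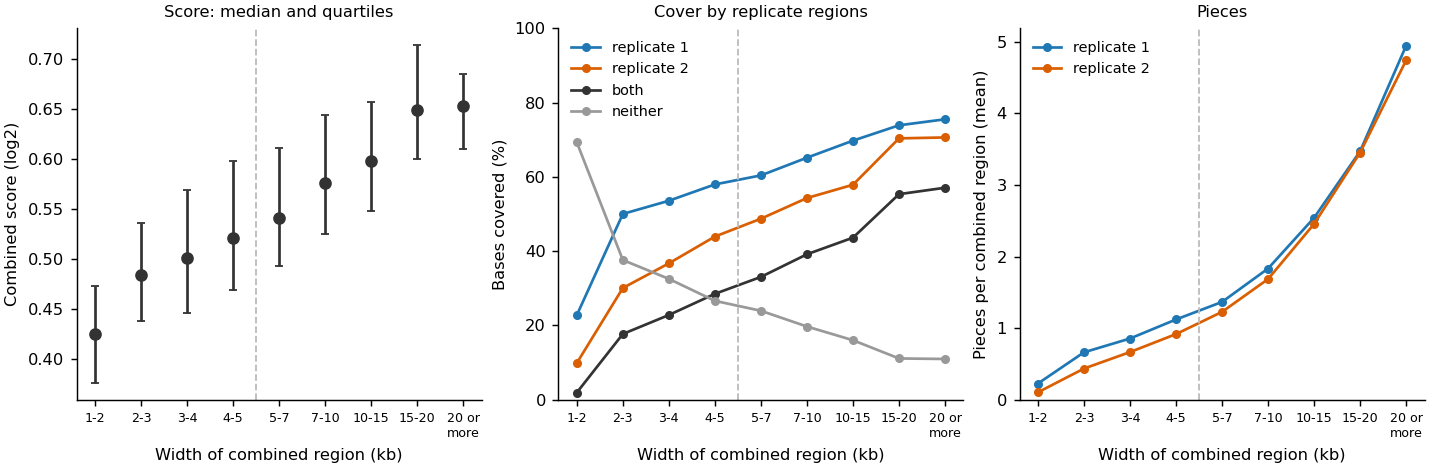
Combined regions in 9 width classes, with the 5-kb limit as a dashed line: median score (log2) with bars to the quartiles, bases covered by the replicates in percent, and mean number of pieces per region. The median score reaches 0.65 and the bases covered in both replicates 57.1% in the class of 20 kb or more, and no step appears at 5 kb.

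Score, cover and number of pieces were all higher in wider classes, and none of them stepped at the limit. The median score was 0.42 at 1 to 2 kb, 0.52 at 4 to 5 kb, 0.54 at 5 to 7 kb, 0.60 at 10 to 15 kb, and 0.65 in the classes of 15 to 20 kb and of 20 kb or more. Bases covered in both replicates came to 1.93%, 28.5%, 33.1%, 43.6%, 55.3% and 57.1% in these 6 classes. The correlation of score and width was weak within the domains (Spearman's rho 0.29 over 1765 domains) and in narrower regions (0.29 over 16299). Pieces were longer in wider domains, but by less than the domains themselves. Domains of 5 to 7 kb held 1.37 pieces of replicate 1 and 1.23 of replicate 2, with an average of 2586 and 2323 bp each inside the domain. Domains of 20 kb or more held 4.95 and 4.74 pieces, with 3799 and 3706 bp each. This is 0.234 pieces per kb of domain in replicate 1 at 5 to 7 kb and 0.199 at 20 kb or more, with 0.210 and 0.191 in replicate 2.

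The combined score of a domain went with how much of it both replicates covered. Spearman's rho of score and share covered in both was 0.68 over the 1765 domains and 0.37 over narrower regions. In narrower regions this share was 0% even at the upper quartile, so most of their points tie and the 2 rhos are not directly comparable. The points share their libraries and the combined list its samples with the replicates, so these are descriptions. The 5 highest-scoring domains were 5541 to 7163 bp wide, and 4 of them had 1 piece in each replicate. In the first, 2R 3104574 to 3110712, pieces scored 1.19 in replicate 1 and 1.01 in replicate 2, and 77.7% of the domain was covered in both. Next, 3L 11951902 to 11958542 had mean piece scores of 1.14 and 1.20 and 73.4% in both. In 2R 8885688 to 8892650 these were 1.09, 0.91 and 93.1%. The 2 on the X were less evenly covered: X 2021164 to 2026704 had 57.1% in both, and X 19670566 to 19677728 had 31.4%, with 90.2% in replicate 1 and 33.5% in replicate 2.

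The 5 lowest-scoring domains had 0% of their bases covered in both replicates. They were 2L 15318864 to 15325352 with a score of 0.34, 2L 14552014 to 14558552 and 3L 21058868 to 21064620 with 0.36, and 2L 18639416 to 18644716 and 3R 9281018 to 9286058 with 0.37. Their widths were 5041 to 6539 bp. The second had no replicate region at all and was separated from its neighbouring combined regions by 17 bp and 9 bp. In the third, replicate 1 covered 28.5% and replicate 2 another 52.6% without a shared base.

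Where both replicates had a piece, piece scores were averaged over each domain and compared between the replicates. Weighted by overlapping bases, these scores over 1598 domains had a median of 0.72 in replicate 1 and 0.69 in replicate 2. The combined score of the same domains had a median of 0.58. The combined score was below that of replicate 1 in 98.2% of these domains and below that of replicate 2 in 93.4%. In narrower regions with pieces of both replicates these shares were similar, 95.4% and 92.9%. The replicate scores count only the pieces, whereas the combined score is 1 value for the whole region. Spearman's rho between the replicates was 0.40 over the 1598 domains and 0.38 over 2817 narrower regions. By width class it was between 0.36 and 0.49 in domains under 20 kb and 0.055 in the 39 domains of 20 kb or more. The last value is imprecise with so few domains, and the class just below it, of 15 to 20 kb with 55 domains, had the 0.49. The share of the domain covered in replicate 1 and in replicate 2 had a rho of 0.205. Among replicate regions under 2 kb, those that met a domain scored about the same as the others, with medians of 0.60 against 0.62 in replicate 1 and 0.62 in both classes of replicate 2.

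Width chosen in 1 replicate and cover measured in the other gave a comparison that does not use the combined list. The 390 regions of at least 5 kb in replicate 1 were covered to 70.1% of their bases by replicate 2, and the 9891 narrower ones to 40.5%. The 248 such regions of replicate 2 were covered to 77.4% by replicate 1, and the 7174 narrower ones to 60.6%. The mean of the 2 directions for wide regions was 73.7% ± 5.17 (SD, n = 2). Both directions compare the same pair of lists, so this SD is not a spread between independent replicates. No shared base was found for 5 of the 390 (1.28%) and 4 of the 248 (1.61%), and for 50.1% of narrower regions of replicate 1 and 28.2% of those of replicate 2. A region of at least 5 kb in replicate 2 was met by 118 wide regions of replicate 1 (30.3%) and by 2.73% of its narrower regions. A region of at least 5 kb in replicate 1 was met by 115 wide regions of replicate 2 (46.4%) and by 7.12% of its narrower regions. Sharing any base, or meeting a wide region, depends on width by construction, since a wide region has more bases on which to meet another. These comparisons were not tested, since regions of 1 library are not replicates.

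Broad domains lay close to other regions and to each other. The gap to an adjacent combined region had a median of 953 bp beside domains and 1657 bp beside narrower regions. It was under 1000 bp in 51.3% and 37.8% of cases. The flanks of 20 kb on each side were covered by other combined regions to 56.4% beside domains and to 42.1% beside narrower regions. An adjacent region was itself broad for 621 domains (35.2%) and for 15.8% of narrower regions. The nearest other domain was 7.12 kb away at the median for domains and 26.5 kb for narrower regions. Another domain lay within 20 kb of 1277 domains (72.4%, interval 70.2 to 74.4%) and of 43.2% of narrower regions, with 46.0% over all combined regions. At the other extreme, 78 domains were more than 100 kb from any other domain on their chromosome. The same distances counted in the replicates' own lists gave lower shares, with 37.7% of the 390 wide regions of replicate 1 and 39.9% of the 248 of replicate 2 within 20 kb of another. These lists hold fewer wide regions than the combined list, which lowers such a share by construction.

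**Figure D4:**
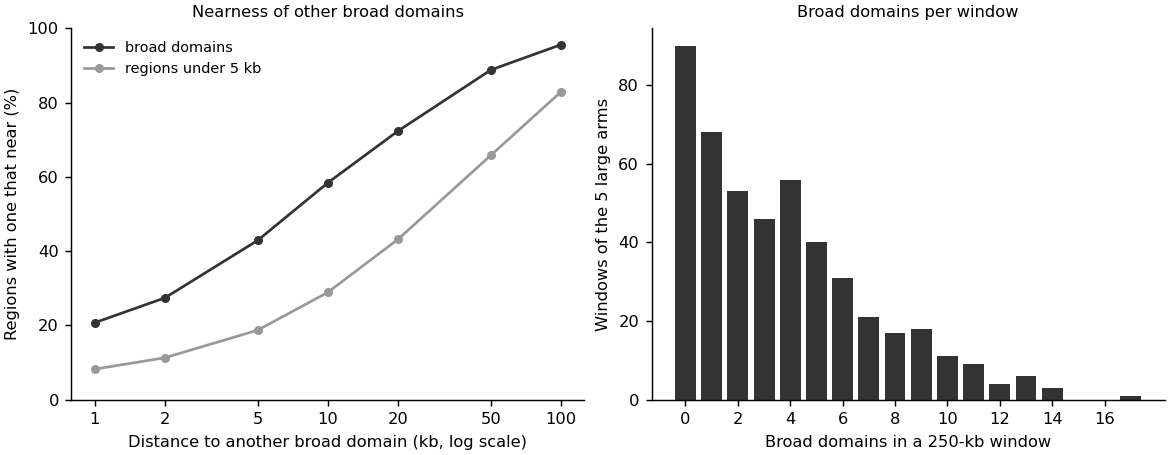
Left, share of broad domains (black) and of narrower regions (grey) with another broad domain within the distance on the x axis (kb, log scale). Right, number of 250-kb windows of the 5 large arms by the number of domains they hold; 90 of 474 windows hold none and the fullest holds 17.

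Chained at gaps of at most 20 kb, the 1765 domains formed 488 single domains and 344 runs of at least 2. Of these, 77 runs had at least 5 members and together held 584 domains (33.1%), and 12 had at least 10 members with 171 domains. The largest run, of 31 domains, lay on 2R at 15655852 to 16109728. Over its 454 kb, 64.1% of the bases were in domains, 86.2% in combined regions of any width, 50.7% in regions of replicate 1 and 47.8% in regions of replicate 2. Its domains scored between 0.41 and 0.81, with a median of 0.56, which is close to the 0.57 of all domains. The next run, of 19 domains, lay on 3R at 27115746 to 27396664, near the end of that arm.

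The 3 runs after that were neighbours on 3L. They held 15 domains at 370216 to 616314, 14 at 658348 to 850648 and 14 at 1065536 to 1257708. Within the middle run 72.3% of the bases were in domains, 62.9% in regions of replicate 1 and 57.9% in regions of replicate 2, and the median score was 0.63. The most densely filled of the 10 largest runs was 3R 6336706 to 6500682, with 12 domains, 75.2% of its bases in domains and 91.2% in combined regions. On the X the largest run held 11 domains, at 1047380 to 1229364, where replicate 1 covered 55.1% of the bases and replicate 2 covered 33.6%.

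In windows of 250 kb on the large arms, 90 of 474 (19.0%) held no domain, and 86 of these 90 did hold narrower regions. The median window had 3 domains and 35 narrower regions. The 47 windows with the most domains held 29.0% of them, and the 47 with the most narrower regions held 15.1% of those. Such a share is larger where windows hold few members, and the variance of the number per window over its mean was 3.07 for domains and 3.44 for narrower regions. This ratio depends on the mean number per window too, so it does not settle which of the pair was more unevenly spread. The quartiles per window were 1 and 6 for domains, and 28 and 41 for narrower regions. The numbers of domains and of narrower regions per window were nearly unrelated (Spearman's rho 0.090 over 474 windows), and a window filled with wide domains has less room for narrower regions. After the 2R window from 15.75 to 16 Mb, with 17 domains, came 3 windows with 14, which lay on 2R from 18 to 18.25 Mb, and on 3L and on the X from 1 to 1.25 Mb.

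By chromosome, 1764 of the domains lay on the 5 large arms. Arm 2R had the most per length, 20.4 per Mb, then 3R with 16.4, 2L with 14.3, 3L with 13.8 and the X with 9.23. Domains covered 17.0% of 2R and 7.06% of the X. Relative to their number, domains varied more between arms than narrower regions, which ranged from 123 per Mb on the X to 149 per Mb on 3R. Domains were 13.3% of the combined regions on 2R, between 9.12% and 9.90% on the other 3 autosomal arms and 7.01% on the X. The median domain width was nearly the same everywhere, from 6839 bp on the X to 7049 bp on 2R.

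**Figure D5:**
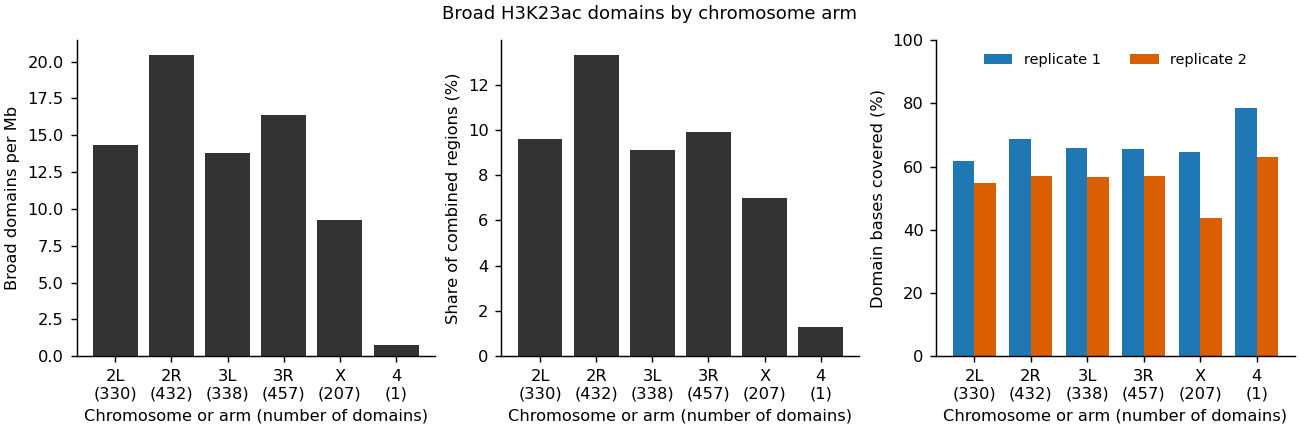
Broad domains per Mb, their share of all combined regions, and the percent of their bases covered by replicate 1 (blue) and replicate 2 (orange), for the 5 large arms and chromosome 4, with the number of domains in brackets. Arm 2R has 20.4 domains per Mb and the X has 9.23; domain bases on the X are covered to 64.6% by replicate 1 and to 43.9% by replicate 2.

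Domains on the X had higher median scores and less replicate support than those on the autosomes. The 207 domains of the X had a median score of 0.63 and the 1557 of the large autosomal arms 0.56. Narrower regions of the X were higher too, with 0.52, against 0.44 on each large autosomal arm. The difference between domains and narrower regions was similar on all large arms, from 0.11 on 2L and the X to 0.14 on 2R. Both replicates had a region in 82.6% of the domains of the X and in 90.6 to 93.5% of those of each autosomal arm. Replicate 1 covered 64.6% of domain bases on the X, within the range of the autosomal arms (61.7 to 68.7%). Replicate 2 covered 43.9%, below their range (54.8 to 57.2%). Replicate 2 had 13 regions of at least 5 kb on the X and 42 to 76 on each autosomal arm, and replicate 1 had 45 and 52 to 118. Another domain lay within 20 kb of 60.4% of the domains of the X and of 71.8 to 77.3% on the autosomal arms. The X also had the fewest domains per Mb of these arms, and the part of that in the distances was not tested.

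Near the centromere-side ends of the arm sequences domains were rare except on 3R. The 1 Mb at this end held 0 domains on 2R and on 3L, 1 on 2L, 1 on the X and 26 on 3R. Narrower regions were not counted in these ends, so whether the low numbers are particular to broad domains is unknown. Chromosome 4, a tiny chromosome rich in heterochromatin, held a single domain, 4 732092 to 737664, of 5573 bp with a score of 0.56, among its 76 combined regions. It had 2 pieces in each replicate, and 63.1% of it was covered in both. None of the 32 combined regions on heterochromatic or unplaced scaffolds was 5 kb wide. Whether reads could be placed in these sequences was not examined.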

How the data were processed

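Lists of enriched regions were deposited for each of the 2 ChIP replicates, with a combined list. Fixation used 1.8% formaldehyde and each input served 1 replicate, per the labels' protocols. The submitters' processing notes list Bowtie 0.12.7. The build is FlyBase release 5, per the file headers. For the caller, its threshold and the combining of replicates, nothing was given in the sources used here. The score that the authors deposited for each region was read as log2: with base 2, 40.7 to 72.6% of 3000 neighbouring score differences per list gave ratios of whole numbers (relative tolerance 1e-12), and with natural or decimal logarithms at most 0.133%. The domains and the measures were chosen with earlier results of these data known. Pieces share at least 1 base with a domain. Replicate scores were weighted by overlapping bases. Named regions are the 10 widest, the 5 extreme by score, pieces and share in both, those beside the limit, those on chromosome 4, and the longest runs; the windows, domains without replicate regions and further runs were picked after their values were seen. The calculations were checked on 500 simulated regions, all recovered. No test was run, since width chose the domains and regions of a library are not replicates. Columns unused because no sample matched numbered 0. Python 3.11.15, numpy 2.4.6, pandas 2.3.3, scipy 1.17.1 and matplotlib 3.10.9 were used.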

Additional observations from a re-analysis of the deposited data

How the results depend on the processing

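Alternative values with both replicates kept numbered 46. Of these, 22 stayed within the replicate SD or the 95% interval of the value reported, and 24 moved beyond it. For the count the limit was 1.5 times, and for cross-replicate cover the SD was that of the 2 directions. The interval for bases in both, 40.04 to 40.09%, treated bases as independent, and that for rho treated domains so. Bases and domains are not independent, so the tally does not measure robustness. The values that changed sign numbered 0, but only the score difference and the rho could do so. On the 5 large arms alone no value moved, but this setting kept 1764 of the 1765 domains. With a limit of 4000 bp there were 2729 domains, 83.7% with both replicates, 37.4% of bases in both, 1.49 pieces and 80.9% within 20 kb of another. With 8000 bp these were 628, 98.7%, 45.9%, 2.44 and 54.1%; more or fewer domains bring others nearer or farther by construction. With regions less than 1000 bp apart merged they were 2935, 79.0%, 26.3%, 2.10 and 83.4%, the score difference was 0.055 and cross-replicate cover 63.9%, and the cause was not tested. Among regions above the median score, 92.9% of domains had both replicates and 42.2% of bases were in both. The score difference was then 0.065, in part by construction since the score selected the regions, and the rho of replicate scores was 0.36. Asking for 50% cover in each replicate left 45.7%. Another domain lay within 10 kb for 58.4% and within 50 kb for 88.8%. With 1 replicate left out, wide regions numbered 248 to 390 in the other's own list, their score difference was 0.11 to 0.16, and 37.7 to 39.9% lay within 20 kb of another. Of the domains, 92.7 to 97.3% then had a region of the remaining replicate, which covered 55.1 to 65.6% of their bases in 1.68 to 1.81 pieces, and cross-replicate cover was 70.1 to 77.4%. No paired analysis was possible because the input samples have no list here and no test was run. Depth is unknown, so its effect on width could not be measured.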

Other observations

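The coordinates of the lists differed in resolution. All 18064 combined regions began and ended on an even base, whereas 49.6% of the starts in replicate 1 and 49.4% of those in replicate 2 were even, so that combined positions and domain widths are resolved to 2 bp. The narrowest region measured 1001 bp in the combined list, where 245 regions had that width, and 1301 bp in both replicate lists, with 18 regions each. In 12 places consecutive combined regions shared 1 base without being joined, and 5 broad domains shared a base in this way with the next combined region.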
